A study of Mus musculus with 24 samples.

Results

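Epigonadal adipose tissue (GAT), the visceral fat pad attached to the male reproductive tract, was compared with subcutaneous adipose tissue (SAT) in wild-type male C57BL/6J mice. The mice were littermates of Azin2-/- mice and had been fed a diet that drew 60% of its energy from fat, for 8 weeks. All libraries of the genotype experiment with the genotype WT in the labels were used. They are 4 of GAT and 5 of SAT, or 9 of the 24 libraries of the series. RNA of whole tissue was measured, so each library pools adipocytes with stromal, immune, vascular and surface cells. In such a sample fewer cells of a type and less RNA per cell cannot be told apart. The 7 libraries of Azin2-/- littermates on the same diet, 4 of GAT and 3 of SAT, are set beside the result. Every mouse of these groups was on the high-fat diet, so none of the values describes the depots of lean mice. In the titles 3 marks occur in both depots, but the labels do not state that a mark is 1 animal. P-values measure the spread between libraries.

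White fat depots arise from different embryonic progenitors. Subcutaneous fat cells keep the transcription of limb and body wall factors such as Tbx15 and Shox2 and of posterior Hox genes. Visceral fat lies inside the peritoneal cavity, is wrapped by mesothelium, a sheet of epithelium-like cells marked by mesothelin and uroplakins, and holds cells of a lineage marked by Wt1. Hox genes encode transcription factors arranged in the clusters HoxA to HoxD, where genes with higher numbers are used further towards the tail and the ends of the limbs.

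Promoter sequence is shown for Lhx8, which was read nearly only in SAT, and Shox2, which was read in all libraries but far lower in GAT. It is also shown for Tcf21 and Upk3b, which were read nearly only in GAT. They differed widely between the depots. Each line holds the 250 bases before the gene's start in RefSeq on GRCm38.p6, 5′ to 3′ on the gene's strand. The GENCODE M21 starts of Lhx8 (154330659) and Tcf21 (22820174) differ from these and lie inside the windows. Capitals mark matches to the TATA box TATAAA, the GC box GGGCGG or the CCAAT box CCAAT, searched on both strands.
Lhx8 (chr3:154330561-154330810, minus strand): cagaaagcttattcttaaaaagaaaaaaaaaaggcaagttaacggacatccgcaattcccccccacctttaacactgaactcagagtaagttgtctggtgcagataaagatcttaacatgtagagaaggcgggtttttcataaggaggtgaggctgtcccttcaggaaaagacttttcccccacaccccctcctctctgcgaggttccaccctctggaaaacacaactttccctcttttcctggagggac
Shox2 (chr3:66981772-66982021, minus strand): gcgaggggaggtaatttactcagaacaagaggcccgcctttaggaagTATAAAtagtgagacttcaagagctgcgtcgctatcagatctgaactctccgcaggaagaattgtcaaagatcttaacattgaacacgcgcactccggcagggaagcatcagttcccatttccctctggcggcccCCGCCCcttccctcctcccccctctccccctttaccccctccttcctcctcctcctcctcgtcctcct
Tcf21 (chr10:22820144-22820393, minus strand): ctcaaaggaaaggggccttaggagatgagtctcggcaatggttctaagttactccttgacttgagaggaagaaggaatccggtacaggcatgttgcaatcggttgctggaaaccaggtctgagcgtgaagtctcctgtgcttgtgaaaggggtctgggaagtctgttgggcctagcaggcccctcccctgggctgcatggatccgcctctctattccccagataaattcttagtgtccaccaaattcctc
Upk3b (chr5:136038246-136038495, plus strand): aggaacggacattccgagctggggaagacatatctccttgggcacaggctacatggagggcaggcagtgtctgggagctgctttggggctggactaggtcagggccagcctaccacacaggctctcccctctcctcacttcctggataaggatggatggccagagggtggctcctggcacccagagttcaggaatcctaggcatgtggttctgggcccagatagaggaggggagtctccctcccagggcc
The Shox2 window held 1 TATA box, starting at position -203 from the gene's start, 1 GC box at -68 on the other strand, and 11 CpG dinucleotides. No match to the 3 motifs was in the windows of Lhx8, Tcf21 and Upk3b, which held 4, 5 and 2 CpG. Of all 32851 RefSeq windows of this length, 12.4% held a TATA box, 32.7% a GC box and 33.8% a CCAAT box, and the median window held 6 CpG.

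The 9 libraries held 33.3 to 46.6 megareads of counted reads. Mean library size was 1.09 megareads higher in GAT (two-sided exact permutation test, p = 0.73). Azin2 was at 22.9 to 26.6 CPM of the total count in wild-type GAT and 14.6 to 26.0 CPM in wild-type SAT, against 12.7 to 19.8 and 6.73 to 11.5 CPM in the Azin2-/- libraries. The adipocyte hormones Adipoq and Lep were high in every wild-type library, at 1811 to 3264 and 1890 to 4199 normalised CPM. A pair of libraries stood apart before any comparison. In SAT replicate 3 the 16 skeletal muscle markers summed to 68610 CPM, against 91.4 to 292 CPM in the others. In GAT replicate 3 the 19 epididymis and testis markers summed to 6548 CPM, against at most 5.06 CPM. These libraries hold transcripts of neighbouring organs. Counts were also made without both.

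Between the depots, 738 of 17030 tested genes, or 4.33%, were called by edgeR's quasi-likelihood test (p adjusted by Benjamini-Hochberg over all genes tested, threshold 0.05). Of these, 420 (2.47% of genes tested) were higher in GAT and 318 (1.87%) higher in SAT. The log2 fold change was over 3 in 83 genes and under -3 in 57, and 676 of the called genes are protein coding. The values of the depots did not overlap in 699 of the 738, whereas over all genes tested 10.6% did not overlap. Without both replicates 3, 1136 genes were called, and 625 of the 738 were among them. With a block for the title mark over all 9 libraries edgeR called 0 genes, and all 738 kept their sign. The count depended on single libraries. It was 296 without GAT replicate 2, 388 without GAT replicate 4, 354 without SAT replicate 1, 448 without SAT replicate 4 and 359 without SAT replicate 5. It was 650 to 909 without each of the other 4. In all 9 of these fits 243 genes were called, 143 higher in GAT and 100 higher in SAT. Genes named below were called in each of the 9 unless another adjusted p is given. Counts of called list members are to be read beside the 2.47% and 1.87% of all genes tested that were called higher in GAT and SAT. Fold changes are log2 values of GAT minus SAT, so positive values mean higher in GAT. Levels are normalised CPM, read counts scaled by library size, of replicates 1 to 4 of GAT and 1 to 5 of SAT in that order.

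Several transcription factors of development were read nearly only, or at far higher levels, in 1 depot. Tbx15 (chromosome 3, 99240381 to 99354259 on GRCm38), a T-box factor of the body wall and subcutaneous fat, was at 0.128, 0.205, 0.147 and 0.228 CPM in GAT and 17.8, 18, 137, 16.5 and 21.3 CPM in SAT (log2 fold change -7.89 ± 1.08 SE, adjusted p = 0.0081). Shox2 (chromosome 3, 66971727 to 66981771), a homeobox factor of limb growth, was at 1.08, 1.41, 0.366 and 1.25 CPM in GAT and 20.6, 14.8, 28.1, 17.8 and 33.2 CPM in SAT (log2 fold change -4.48 ± 0.43 SE, adjusted p = 0.00105). The LIM-homeobox factor Lhx8 had a count in only 1 GAT library, with 0, 0, 0.122 and 0 CPM in GAT and 16.6, 10.1, 8.56, 6.53 and 4.82 CPM in SAT (log2 fold change -8.10 ± 0.95 SE, adjusted p = 0.00297). In each of these the depots were far apart, and the highest SAT value of Tbx15 was in SAT replicate 3, the library with muscle transcripts. Without that library Tbx15 was still called (adjusted p of 0.037 or less in all fits that left out a library).

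Tbx5, a T-box factor of the forelimb and heart, was at 0.128 to 0.285 CPM in GAT and 2.15 to 6.79 CPM in SAT (log2 fold change -4.39 ± 0.42 SE, adjusted p = 0.001). Twist2, a bHLH factor of dermal and fat progenitors, differed less, at 3.54 to 6.26 and 10.1 to 17.8 CPM (log2 fold change -1.41 ± 0.23 SE, adjusted p = 0.0106). Of the 14 tested factors listed as subcutaneous, 9 were called higher in SAT and 0 in GAT, with a median log2 fold change of -1.45 against -0.01 over all genes tested. The count was 9 without both replicates 3 and 5 to 9 when 1 library was left out, with the lowest without GAT replicate 2 or GAT replicate 4. Other called members were less firm. Irx5 (-3.43 ± 0.65) missed the threshold without GAT replicate 2 (adjusted p = 0.066) or 4 (0.067). En1 (-3.76 ± 0.77) missed it without GAT replicate 2 (0.089), GAT replicate 4 (0.075), SAT replicate 1 (0.059) or SAT replicate 5 (0.062). Prrx1 (-0.88 ± 0.21) missed it without any 1 library other than SAT replicate 2 (0.058 to 0.11).

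Factors of the visceral lineage ran the other way. Wt1 (chromosome 2, 105126529 to 105173616), the zinc finger factor that marks visceral fat progenitors and mesothelium, was at 10.2, 26.6, 14.1 and 29.9 CPM in GAT and 0.0482, 0, 0.059, 0 and 0 CPM in SAT (log2 fold change 9.70 ± 0.71 SE, adjusted p = 0.000348). Tcf21 (chromosome 10, 22817281 to 22820174), a bHLH factor of visceral mesenchyme, was even across the GAT libraries, with 5.53, 4.79, 5.06 and 5.5 CPM in GAT and 0, 0.084, 0.0295, 0 and 0 CPM in SAT (log2 fold change 7.52 ± 0.68 SE, adjusted p = 0.000827).

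Bnc1, a zinc finger factor of mesothelium and germ cells, was at 2.36 to 17.1 CPM in GAT and had counts in SAT replicate 3 alone (log2 fold change 8.46 ± 1.12 SE, adjusted p = 0.00532). Hand2, a bHLH factor of heart and limb, was at 0.277 to 1.65 and 0.0573 to 0.189 CPM (log2 fold change 3.08 ± 0.54 SE, adjusted p = 0.0144). Gata5 had 343 counts over the 4 GAT libraries and 0 over the 5 of SAT, at least 139-fold higher against a floor of 3 counts over the group. Of the 13 tested factors listed as visceral, 8 were called higher in GAT and 0 in SAT, with a median of 1.18. This was 8 without both replicates 3 and 4 to 8 when 1 library was left out, with the lowest without GAT replicate 2 or 4. Gata5 missed the threshold without GAT replicate 2 (adjusted p = 0.059) or 4 (0.054), and Meis1 (0.70 ± 0.14) without GAT replicate 1, 2 or 4 or SAT replicate 1, 4 or 5 (0.051 to 0.077). Nr2f1 (0.86 ± 0.20) missed it without any 1 library but GAT replicate 3 or SAT replicate 3 (0.081 to 0.12), and Osr1 (1.18 ± 0.28) without any 1 library but GAT replicate 1 or 3 (0.063 to 0.13).

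**Figure D1:**
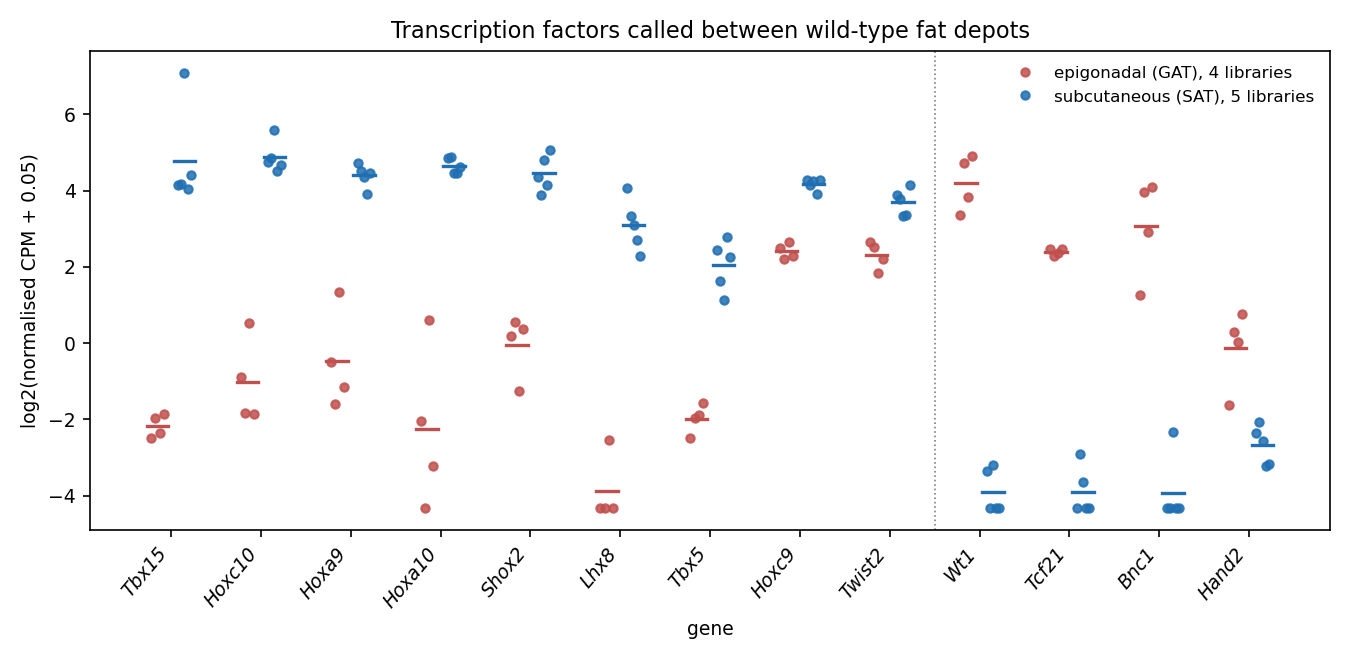
Levels of 13 transcription factor genes in each wild-type library, as log2 of normalised CPM with 0.05 CPM added. Points are libraries (red, 4 of GAT; blue, 5 of SAT), bars are means, and the dotted line parts genes higher in SAT from genes higher in GAT. In each gene the depots do not overlap, and the high SAT point of Tbx15 is replicate 3.

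Genes at the posterior ends of the HoxA and HoxC clusters differed between the depots. Hoxc10 (chromosome 15, 102966796 to 102971893) was at 0.489, 0.231, 1.39 and 0.228 CPM in GAT and 27, 29, 47.8, 22.9 and 25.5 CPM in SAT (log2 fold change -5.68 ± 0.59 SE, adjusted p = 0.00229). Hoxa9 (chromosome 6, 52223100 to 52231089) was at 0.66, 0.282, 2.47 and 0.399 CPM in GAT and 26.4, 22.9, 20.4, 15.1 and 22.2 CPM in SAT (log2 fold change -4.48 ± 0.64 SE, adjusted p = 0.00834). Its neighbour Hoxa10 (chromosome 6, 52231197 to 52240854) was at 0.192, 0, 1.47 and 0.057 CPM in GAT and 28.9, 29.6, 22, 21.9 and 24.5 CPM in SAT (log2 fold change -5.87 ± 1.02 SE, adjusted p = 0.0178). The call of Hoxa10 was just lost without SAT replicate 1 (adjusted p = 0.051) or 5 (0.050). Hoxc9 was read in both depots, at 5.62, 4.54, 6.23 and 4.81 CPM in GAT and 19.5, 17.7, 19, 15.1 and 19.4 CPM in SAT, and the step of -1.77 ± 0.13 was small in size but even (adjusted p = 0.000348). In all 4 genes the highest GAT level was in GAT replicate 3, the library with epididymal transcripts.

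Among the anterior and middle genes only Hoxc4 was called with all 9 libraries. Hoxc8, next to Hoxc9 in the cluster, was at 96 to 204 CPM in GAT and 121 to 152 CPM in SAT (log2 fold change 0.24 ± 0.20, adjusted p = 0.497). Hoxc4 was called higher in GAT (log2 fold change 1.01 ± 0.21 SE, adjusted p = 0.0265), although GAT replicate 3 at 12.6 CPM lay below the highest SAT library at 13.5 CPM. It missed the threshold without GAT replicate 1, 2 or 4 or SAT replicate 2, 4 or 5 (0.054 to 0.084). Of 10 tested HoxA genes 2 were called higher in SAT, of 6 HoxC genes 2 higher in SAT and 1 in GAT, and of 8 HoxB and 5 HoxD genes none. With 1 library left out, HoxA gave 1 (without SAT replicate 1 or 5) to 3 genes higher in SAT, and HoxC 2 in each fit. Hoxa5 was called higher in GAT without GAT replicate 3 (log2 fold change 0.49, adjusted p = 0.028) or both replicates 3 (0.46, adjusted p = 0.034).

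The HoxB genes show how a single library can set a median. All 8 had a positive fold change, with a median of 0.81. Hoxb8 was at 7.73, 11.4, 124 and 11.7 CPM in the 4 GAT libraries and 11.5, 9.81, 8.68, 15 and 11.9 CPM in SAT (log2 fold change 1.76 ± 0.83 SE, adjusted p = 0.254). The high value is that of GAT replicate 3. The HoxB median was -0.04 without it and -0.17 without both replicates 3. Emx2, a homeobox factor of the urogenital tract, had the same shape, at 0.809, 0.974, 91.9 and 1.42 CPM in GAT and 1.64, 0.987, 6.43, 2.92 and 3.9 CPM in SAT (log2 fold change 2.91 ± 1.48 SE, adjusted p = 0.29). Its sign turned to -1.57 without GAT replicate 3. Below the low-count filter lay further posterior genes. Hoxc11 had 7, 2, 144, 8 and 10 counts in the SAT libraries and 0 in each GAT library, with the 144 in SAT replicate 3, and Hoxa13 had 25 counts over SAT and 0 over GAT.

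**Figure D2:**
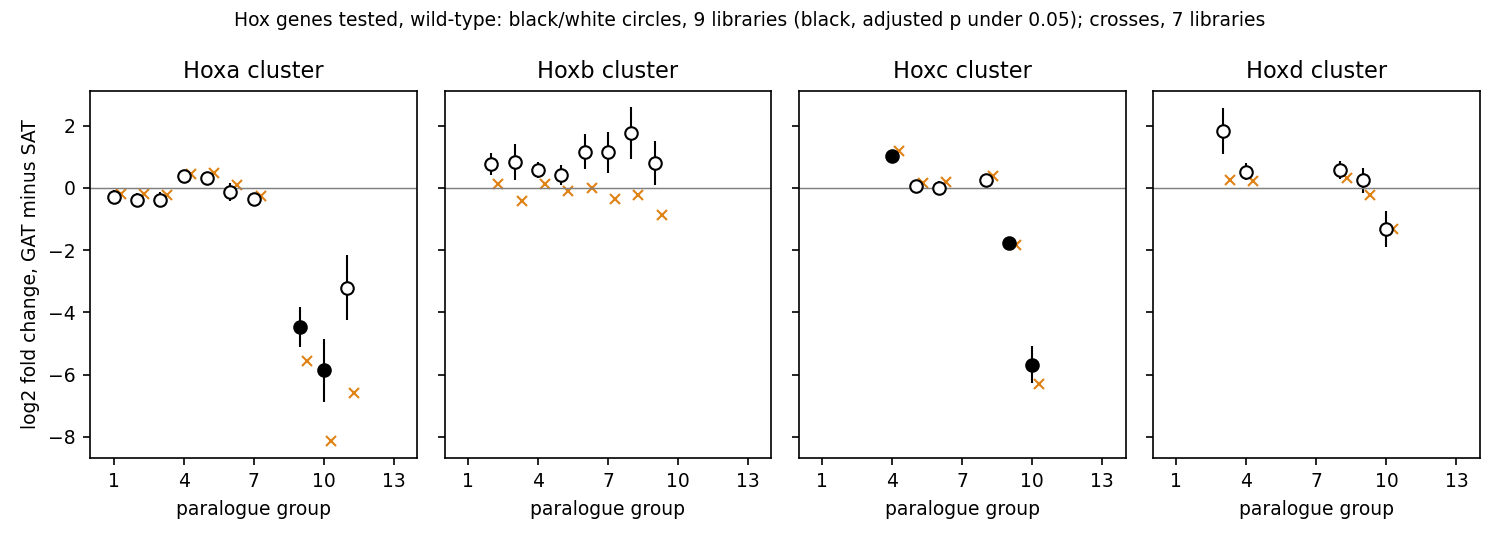
Log2 fold change (GAT minus SAT) of each tested Hox gene against its paralogue group, by cluster. Circles with SE bars are from all 9 libraries (black, adjusted p under 0.05), and crosses are from 7 libraries without both replicates 3. Groups 9 and 10 of HoxA and HoxC lie below 0 in both fits, and the HoxB circles lie above 0 where the crosses are near it or below it.

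Mesothelial genes were higher in GAT as a group. Of the 18 listed markers, all tested, 12 were called higher in GAT and 0 in SAT, with a median log2 fold change of 5.83 (5.20 without both replicates 3, and 11 to 13 called when 1 library was left out). Upk3b (chromosome 5, 136038496 to 136046487), a uroplakin of the mesothelial surface, was at 24.3, 189.8, 91.9 and 219 CPM in GAT and 0.0241, 0.105, 0.0885, 0 and 0.061 CPM in SAT (log2 fold change 11.08 ± 0.91 SE, adjusted p = 0.000935). Msln, which encodes the surface protein mesothelin, was at 11.8, 119.5, 66.6 and 114 CPM in GAT and 0.193, 0.084, 0.236, 0.0286 and 0.061 CPM in SAT (log2 fold change 9.30 ± 0.86 SE, adjusted p = 0.00157). Muc16, the large surface mucin to which mesothelin binds, was at 3.19, 20, 9.48 and 22 CPM in GAT and had no count in SAT, against 2090 over the GAT libraries, at least 847-fold higher against a floor of 3 counts over the group. GAT replicate 1 was the lowest of its depot in each of these.

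Upk1b had 4329 counts over GAT and 2 over SAT, a ratio of 2630 with an exact 95% interval of 728 to 21700, which covers counting error only. Chst4, a sulfotransferase named by its size of difference, had 1147 and 2 counts, a ratio of 697 (193 to 5770). The protease inhibitor Slpi was at 6.62 to 58.8 CPM in GAT and 0.12 to 0.231 CPM in SAT (log2 fold change 7.62 ± 0.68 SE, adjusted p = 0.000996). Nkain4, a membrane protein, was at 4.13 to 26.5 and 0.126 to 0.354 CPM (log2 fold change 6.40 ± 0.60 SE, adjusted p = 0.000996). Krt19, Krt7, Gpm6a, Lrrn4, Ezr and Rspo1 made up the rest of the called members. Ezr (log2 fold change 2.40 ± 0.43) missed the threshold without GAT replicate 2 or SAT replicate 1, 4 or 5 (adjusted p of 0.051 to 0.056). The broad epithelial keratins Krt8 (6.63, adjusted p = 0.062) and Krt18 (6.03, adjusted p = 0.079) did not pass, and these keratins, Krt19, Krt7, Gpm6a, Lrrn4 and Ezr were named after their values were seen. The summed level of the list was 198 CPM of the total count in GAT replicate 1 and 941, 1118 and 981 CPM in the others, against 104 to 162 CPM in SAT. The 1118 CPM is that of GAT replicate 3, the library with epididymal transcripts. There the listed epithelial gene Cdh1 was at 77.5 CPM of the total count, against at most 0.258 CPM in the other GAT libraries. Krt8 and Krt18 were also highest there, whereas Upk3b and Msln were lower than in GAT replicates 2 and 4. The part of epididymal cells in this sum was not tested. Called genes of other lists, such as Wnt2b, Ptgis and Pdpn, were also lowest in GAT replicate 1, and the part of mesothelial cells in them was not tested.

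**Figure D3:**
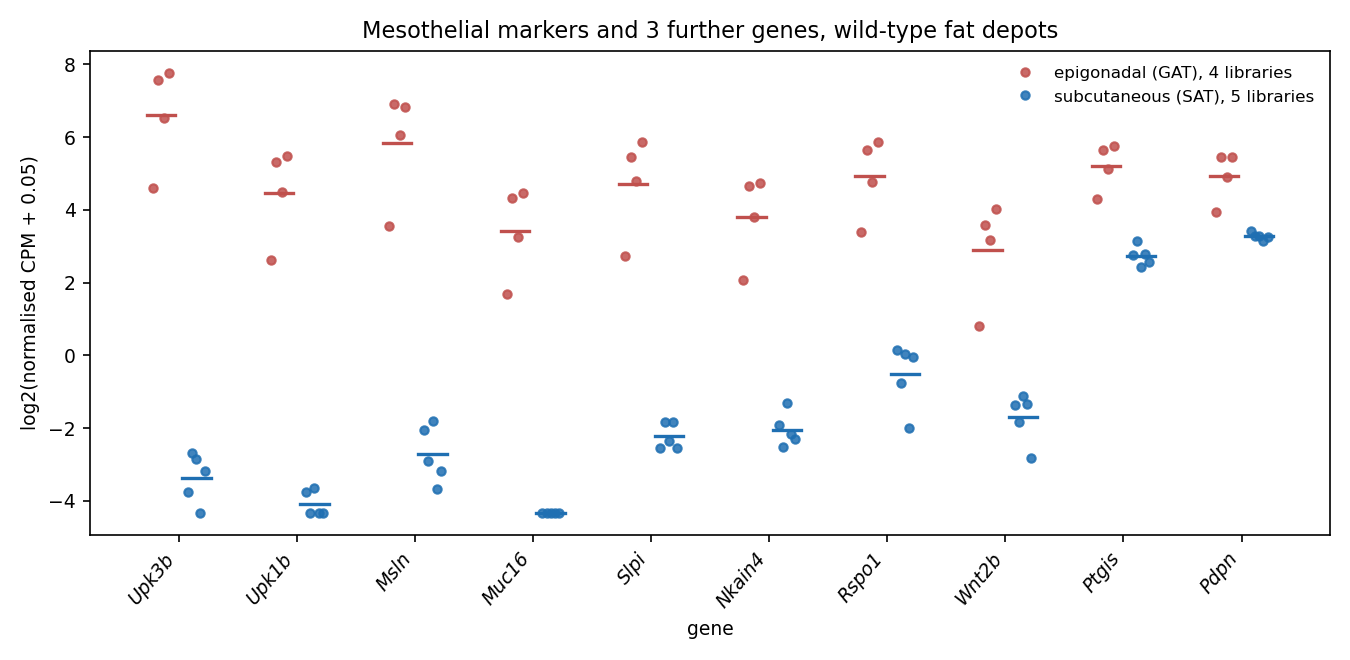
Levels of 10 genes called higher in GAT, as log2 of normalised CPM with 0.05 CPM added, for the 4 GAT (red) and 5 SAT (blue) libraries with their means as bars. The first 7 are listed mesothelial markers, and the other 3 belong to other lists. In all 10 the lowest GAT point is replicate 1, and it lies above every SAT point.

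A pair of other genes among the widest differences varied widely between the GAT libraries. Lrp2, the endocytic receptor megalin of resorbing epithelia, was at 1.15, 11.9, 52.1 and 16.1 CPM in GAT and had counts only in replicate 2 of SAT (log2 fold change 9.25 ± 1.41 SE, adjusted p = 0.0112). It missed the threshold without that SAT library (adjusted p = 0.080), although the log2 fold change was then 12.6. Faim2 was at 0.383, 2.82, 77.8 and 3.36 CPM in GAT, with the high value in the library that holds epididymal transcripts (log2 fold change 8.08 ± 1.80 SE, adjusted p = 0.0448). It missed the threshold without any 1 library but GAT replicate 1 or 3 (0.063 to 0.12). Without GAT replicate 3, the library of the high value, it was called at a log2 fold change of 4.8.

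Secreted signals of the Wnt pathway divided between the depots. Wnt proteins are secreted ligands that restrain or direct fat cell formation, and R-spondins strengthen their signal. Rspo1 was at 10.4, 50.4, 27.4 and 57.9 CPM in GAT and 1.06, 0.546, 0.974, 0.2 and 0.915 CPM in SAT (log2 fold change 5.62 ± 0.62 SE, adjusted p = 0.00297). Wnt2b was at 1.7, 12, 8.94 and 16.3 CPM in GAT and 0.337, 0.231, 0.413, 0.344 and 0.0915 CPM in SAT (log2 fold change 5.09 ± 0.65 SE, adjusted p = 0.00451). Both were lowest in GAT replicate 1, where the mesothelial sum was lowest too. Rspo1 is itself a listed mesothelial marker and is part of that sum, so its match with the sum is partly built in. The part of mesothelial cells in these values was not tested. Wnt5b was at 3.05 to 4.4 CPM in GAT and 0.945 to 1.6 CPM in SAT (log2 fold change 1.51 ± 0.20 SE, adjusted p = 0.00483). Wnt2 ran the other way, at 0.341, 0.462, 0.806 and 0.655 CPM in GAT and 3.73, 3.55, 4.66, 4.52 and 6.68 CPM in SAT (log2 fold change -3.03 ± 0.32 SE, adjusted p = 0.00159). Of 26 tested genes of the pathway, 4 were called higher in GAT and 3 in SAT (2.47% and 1.87% over all genes tested). With 1 library left out these were 3 to 5 and 1 to 3. The count in SAT was 1 without GAT replicate 1, GAT replicate 4 or SAT replicate 5.

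Of 30 tested genes of the BMP and TGF-beta pathway, 2 were called, both higher in SAT (1.87% over all genes tested). They were the activin receptor Acvr2a (log2 fold change -0.41 ± 0.07 SE, adjusted p = 0.0112) and the ligand Bmp2 (log2 fold change -0.89 ± 0.16 SE, adjusted p = 0.0147), which missed the threshold without GAT replicate 2 (0.055). With 1 library left out 0 to 2 of the 30 were called in GAT, with 2 without GAT replicate 1 or SAT replicate 3, and 1 to 3 in SAT, with 1 without GAT replicate 2. Cxcl14, a chemokine made by fibroblasts and fat, was at 6.55, 7.18, 12.8 and 6.21 CPM in GAT and 65.2, 62.4, 70.5, 50.4 and 72.3 CPM in SAT (log2 fold change -2.97 ± 0.23 SE, adjusted p = 0.000545). The lowest SAT library lay well above the highest GAT library in this gene. Angpt1, the ligand that steadies vessels through Tie2, was at 5.07 to 8.21 CPM in GAT and 13.3 to 39.1 CPM in SAT (log2 fold change -1.85 ± 0.32 SE, adjusted p = 0.0143). The call was lost without GAT replicate 2 (0.055).

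Matrix genes were called in both directions, with fibrillar collagen chains higher in SAT. Col1a1, the main chain of type I collagen, was at 602, 718, 597 and 651 CPM in GAT and 1080, 1474, 1508, 1116 and 1130 CPM in SAT (log2 fold change -0.97 ± 0.13 SE, adjusted p = 0.00578). Col3a1, of type III collagen, was at 1341 to 1728 CPM in GAT and 2272 to 3110 CPM in SAT (log2 fold change -0.84 ± 0.13 SE, adjusted p = 0.0106). The enzyme Lox, which crosslinks collagen, was at 90.4 to 102 and 176 to 224 CPM (log2 fold change -1.04 ± 0.09 SE, adjusted p = 0.00078). All 3 are moderate differences with no overlap between depots. Chains of type VI collagen, the beaded filaments around fat cells, were called in both directions. Col6a5 (chromosome 9, 105856078 to 105960643) was at 80.2, 32.4, 78.5 and 46.9 CPM in GAT and 0.409, 0.84, 0.561, 0.945 and 0.701 CPM in SAT (log2 fold change 6.42 ± 0.36 SE, adjusted p = 0.000138). Col6a6, its neighbour on the same chromosome, was at 17.5 to 27.9 and 3.48 to 6.47 CPM (log2 fold change 2.15 ± 0.20 SE, adjusted p = 0.000935). Col6a3, named after its values were seen, was higher in SAT (log2 fold change -0.74 ± 0.15 SE, adjusted p = 0.027), and missed the threshold without GAT replicate 2 or 4 or SAT replicate 2 or 5 (0.052 to 0.070). Of 21 tested collagen genes, 3 were called higher in GAT and 4 in SAT (2.47% and 1.87% over all genes tested), and the median was 0.10. These counts were 3 to 4 and 2 to 3 when 1 library was left out, with 2 in SAT without GAT replicate 2 or 4 or SAT replicate 2 or 5.

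Genes of matrix remodelling were called in both directions, and most were not called. Mmp3, stromelysin, was at 3.06, 3.59, 1.37 and 2.42 CPM in GAT and 30.9, 25.6, 39, 23.2 and 37.4 CPM in SAT (log2 fold change -3.58 ± 0.30 SE, adjusted p = 0.00078). Mmp2, a gelatinase, was at 68.8 to 82.2 CPM in GAT and 119 to 226 CPM in SAT (log2 fold change -1.16 ± 0.17 SE, adjusted p = 0.00845). The protease inhibitor Serpine2 was at 47.7, 37.6, 45.1 and 47.7 CPM in GAT and 151, 143, 134, 119 and 121 CPM in SAT (log2 fold change -1.58 ± 0.11 SE, adjusted p = 0.000298). Mmp23 was higher in GAT, at 18.2 to 28.5 against 12.7 to 13.9 CPM (log2 fold change 0.82 ± 0.14 SE, adjusted p = 0.0126). Of 24 tested genes 5 were called higher in SAT, Serpine2 included, and 2 in GAT (1.87% and 2.47% over all genes tested). With 1 library left out these were 3 to 5 and 1 to 3, with 3 in SAT without GAT replicate 1, 2 or 4 or SAT replicate 1, 4 or 5, and 1 in GAT without SAT replicate 4. Comp, a cartilage matrix protein, was at 1.4 to 2.06 and 3.61 to 7.29 CPM (log2 fold change -1.52 ± 0.25 SE, adjusted p = 0.0115). Of the 22 tested markers of fat progenitors 3 were called higher in SAT, among them Efhd1 (log2 fold change -1.15 ± 0.17 SE, adjusted p = 0.00714), the only one called in each fit that left out a library.

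The adipocyte hormones Adipoq and Lep were not called between the depots. Adipoq was at 1811 to 3264 CPM in GAT and 1932 to 2758 CPM in SAT (log2 fold change 0.17 ± 0.18 SE, adjusted p = 0.618). Lep was at 2308 to 4034 and 1890 to 4199 CPM (log2 fold change -0.20 ± 0.27 SE, adjusted p = 0.689). Of 20 tested markers of adipocyte identity 2 were called, both higher in SAT, with a median of -0.29, and 4 of the 20 fold changes were positive. Over all genes tested 2.47% were called higher in GAT and 1.87% higher in SAT. The count of adipocyte markers was 0 or 1 in each fit that left out a library. None of 15 triglyceride synthesis genes was called, and of 18 fatty acid synthesis genes 1 was called in each direction. Without both replicates 3 the triglyceride list gave 2 in GAT and 1 in SAT, and without SAT replicate 3 alone 2 in GAT. Fatty acid synthesis gave 3 in GAT and 0 in SAT without GAT replicate 3 or both replicates 3, and 2 in GAT without SAT replicate 3. Its call in SAT was kept without GAT replicate 1 or SAT replicate 4, and lost without each of the other 7. Acly, which makes acetyl-CoA for lipid synthesis, was at 264 to 375 CPM in GAT and 178 to 243 CPM in SAT (log2 fold change 0.74 ± 0.13 SE, adjusted p = 0.0173). This call did not hold without SAT replicate 5 (0.051).

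Of 20 tested genes of fatty acid oxidation 2 were called, Ppargc1a and Acaa2, both lower in GAT. The list median was -0.38, against -0.01 over all genes tested, of which 1.87% were called higher in SAT. Plin5 is from the list of lipolysis and droplet proteins, of which 2 of 18 were called, both higher in SAT. Ppargc1a, the coactivator that drives mitochondrial genes, was at 3.64, 2.62, 3.74 and 3.19 CPM in GAT and 8.17, 7.77, 12.5, 7.96 and 8.57 CPM in SAT (log2 fold change -1.45 ± 0.19 SE, adjusted p = 0.00464). Plin5, a droplet protein that ties lipid to mitochondria, was at 8.26, 9.82, 10.6 and 9.37 CPM in GAT and 25, 18.3, 23.7, 30.8 and 31.5 CPM in SAT (log2 fold change -1.44 ± 0.17 SE, adjusted p = 0.00267). Acaa2, a thiolase of fatty acid oxidation, was at 127 to 164 CPM in GAT and 197 to 238 CPM in SAT (log2 fold change -0.57 ± 0.09 SE, adjusted p = 0.0122). The highest Ppargc1a value was in SAT replicate 3. None of 22 respiratory chain genes was called, yet all 22 had a negative fold change, from -0.64 to -0.09 with a median of -0.43. The depots did not overlap in 11 of them, against 10.6% of all genes. The median was -0.26 without SAT replicate 3, the library with muscle transcripts, and -0.22 without both replicates 3, and in each of these fits 1 was called higher in SAT.

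Thermogenic genes had a median of -1.21 over 17 tested members, with 4 called higher in SAT and 1 in GAT (3 to 4 and 0 to 1 when 1 library was left out). The lists share members, so these calls are not separate from those above. Ppargc1a is also counted under fatty acid oxidation, and Cidea also under adipocyte identity and under lipolysis and droplet proteins. Their median was -0.50 without both replicates 3. Prdm16, the zinc finger factor of beige and brown fat, was at 12.2, 10.5, 10.1 and 11 CPM in GAT and 25.9, 23.6, 20.9, 24.1 and 31.9 CPM in SAT (log2 fold change -1.21 ± 0.13 SE, adjusted p = 0.00176). Otop1, a proton channel found in thermogenic fat, was at 5.51, 2.85, 2.69 and 3.76 CPM in GAT and 28.3, 26.1, 11.2, 19.9 and 28.5 CPM in SAT (log2 fold change -2.62 ± 0.33 SE, adjusted p = 0.00401). Cidea, a droplet protein of brown fat, was at 1.07 to 6.29 and 9.94 to 30.5 CPM (log2 fold change -2.56 ± 0.60 SE, adjusted p = 0.0479). It missed the threshold without any 1 library but GAT replicate 4 (0.052 to 0.13). Ucp1, the uncoupling protein of heat production, was low in both depots, at 0.0213, 0.102, 0.147 and 0.057 CPM in GAT and 0.265, 0.252, 0.059, 0.83 and 1.37 CPM in SAT, and was not called (log2 fold change -2.71 ± 0.90 SE, adjusted p = 0.123).

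Grb14, an adaptor that blocks the insulin receptor, was at 19.2, 17.9, 21.6 and 36.4 CPM in GAT and 70.2, 67.6, 67.8, 63.2 and 95.1 CPM in SAT (log2 fold change -1.61 ± 0.22 SE, adjusted p = 0.00601). It was the 1 called gene of 21 for insulin signalling and glucose uptake, near the 4.33% of all genes tested that were called. Without GAT replicate 1, 2 of these were called. The receptor Adora1, which restrains lipolysis, was at 119 to 143 CPM in GAT and 162 to 205 CPM in SAT (log2 fold change -0.50 ± 0.09 SE, adjusted p = 0.0181). It was lost without GAT replicate 2 (0.067) or SAT replicate 1 (0.051). None of 22 cholesterol synthesis genes was called. Odc1, the first enzyme of polyamine synthesis, was at 86.6 to 122 and 61.9 to 193 CPM (adjusted p = 0.995). None of 19 polyamine genes was called, Azin2 included (log2 fold change 0.27 ± 0.15, adjusted p = 0.324). Without both replicates 3, 3 of them were called higher in GAT, and 1 was without GAT replicate 3 or SAT replicate 2 alone.

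**Figure D4:**
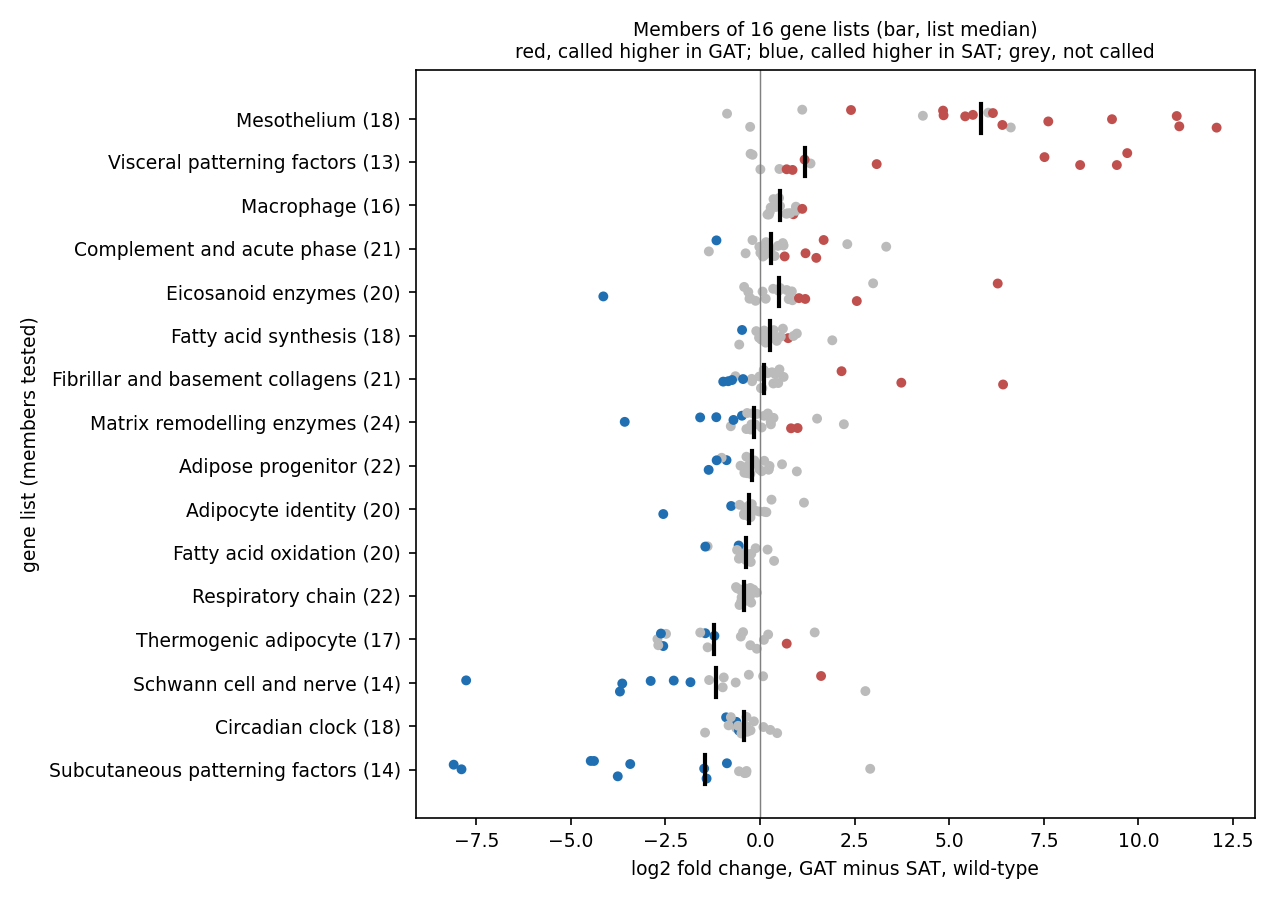
Log2 fold change (GAT minus SAT) of every tested member of 16 gene lists, with the number tested in brackets. Points are genes (red, called higher in GAT; blue, called higher in SAT; grey, not called) and black bars are list medians, from 5.83 for mesothelium to -1.45 for subcutaneous factors.

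Hormone genes were called in both directions. Of 20 tested genes of steroid and nuclear hormone signalling 3 were called higher in GAT and 2 in SAT, and of 23 adipokines and secreted factors 4 and 2. Over all genes tested 2.47% and 1.87% were called. With 1 library left out the counts were 2 to 3 and 1 to 2 for the first list, and 2 to 4 and 0 to 2 for the second. Agt (chromosome 8, 124556534 to 124569706), the precursor of angiotensin, was at 196, 149.9, 292 and 186 CPM in GAT and 18.1, 36.8, 37.4, 14.1 and 16.6 CPM in SAT (log2 fold change 3.06 ± 0.36 SE, adjusted p = 0.00351). Prlr, the prolactin receptor, was at 16.5, 21.5, 39 and 19.6 CPM in GAT and 6.22, 7.58, 5.49, 3.38 and 5.28 CPM in SAT (log2 fold change 2.11 ± 0.29 SE, adjusted p = 0.00582). Star, which carries cholesterol to steroid synthesis, was at 2.66 to 6.24 CPM in GAT and 0.802 to 1.83 CPM in SAT (log2 fold change 1.97 ± 0.32 SE, adjusted p = 0.0106). The opposite held for Akr1c18, which inactivates progesterone, at 0.298, 0.282, 0.269 and 0.427 CPM in GAT and 9.61, 8.86, 1.68, 11.5 and 3.75 CPM in SAT (log2 fold change -4.46 ± 0.59 SE, adjusted p = 0.0049). Its SAT libraries spread widely, from 1.68 to 11.5 CPM, but all lay above GAT.

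Retinoid genes were called in both directions, 2 of 21 each. Aldh1a2, which makes retinoic acid, was at 26.3, 29.7, 18.6 and 25.6 CPM in GAT and 6.05, 11.3, 4.01, 6.61 and 3.14 CPM in SAT (log2 fold change 2.01 ± 0.34 SE, adjusted p = 0.0138). Rbp4, the retinol carrier of plasma, was at 301 to 502 CPM in GAT and 185 to 250 CPM in SAT (log2 fold change 0.98 ± 0.16 SE, adjusted p = 0.0112). Adh7, an alcohol dehydrogenase that oxidises retinol, was lower in GAT, at 0.142 to 0.635 and 4.71 to 6.8 CPM (log2 fold change -3.94 ± 0.37 SE, adjusted p = 0.000996). Rxrg, a retinoid X receptor, was at 11.4 to 18 and 23.7 to 40.1 CPM (log2 fold change -1.0 ± 0.20 SE, adjusted p = 0.0261). The call was lost without GAT replicate 2 (0.083) or SAT replicate 5 (0.061).

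Enzymes that make lipid mediators were among the wider differences. Pla2g5, a secreted phospholipase, was at 0.766, 0.666, 0.977 and 0.342 CPM in GAT and 14.5, 10, 12.9, 8.56 and 15.3 CPM in SAT (log2 fold change -4.14 ± 0.33 SE, adjusted p = 0.000543). Alox15, a lipoxygenase of peritoneal macrophages and other cells, was at 4.04, 9.92, 6.6 and 20.3 CPM in GAT and 0.12, 0.315, 0.059, 0.0859 and 0.0305 CPM in SAT (log2 fold change 6.28 ± 0.70 SE, adjusted p = 0.00236). Ptgis, prostacyclin synthase, was at 19.7, 50.2, 34.5 and 54.3 CPM in GAT and 6.77, 8.78, 5.37, 6.93 and 5.85 CPM in SAT (log2 fold change 2.56 ± 0.28 SE, adjusted p = 0.00232). In Alox15 and Ptgis the lowest GAT library was replicate 1, as in the mesothelial genes. Of 20 tested genes 4 were called higher in GAT and 1 in SAT (2.47% and 1.87% over all genes tested). With 1 library left out these were 2 to 4 and 1 to 2, with 2 in GAT without GAT replicate 2 or SAT replicate 5 and 2 in SAT without SAT replicate 4. Tbxas1, thromboxane synthase, was at 16.9 to 28.5 and 8.41 to 14 CPM (log2 fold change 1.03 ± 0.19 SE, adjusted p = 0.0176). This call did not hold without GAT replicate 2 (0.057) or SAT replicate 5 (0.051).

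Immune genes are given beside the 4.33% of all genes tested that were called. Adgre1, a surface receptor of mature macrophages, was at 79, 90.6, 69.7 and 59.9 CPM in GAT and 43.1, 53, 32.4, 38.9 and 35.7 CPM in SAT (log2 fold change 0.88 ± 0.16 SE, adjusted p = 0.0173). The depots did not overlap, but the call was lost without GAT replicate 2 (0.056) or SAT replicate 5 (0.051). All 16 macrophage markers had a positive fold change, with a median of 0.51, and 2 were called, Adgre1 and Mpeg1. Mpeg1 (1.12 ± 0.25) was lost without GAT replicate 1 or 2 or SAT replicate 1, 4 or 5 (0.079 to 0.11). The count was 0 without GAT replicate 2 or SAT replicate 5, up to 6 without GAT replicate 3, and 7 without both replicates 3. Ccl2, the monocyte chemokine, overlapped widely, at 32.9, 17.7, 7.65 and 8.23 CPM in GAT and 12.4, 19.2, 4.28, 4.89 and 4.12 CPM in SAT (log2 fold change 0.89 ± 0.62 SE, adjusted p = 0.424). None of 18 markers of lipid-associated macrophages, 15 genes of MHC class II presentation, 16 B cell genes and 19 interferon response genes was called. At a share of 4.33% over all genes, lists of this size without a call are not set apart from genes in general. For MHC class II 4 were called higher in GAT without GAT replicate 3 or both replicates 3, and 1 without SAT replicate 4. For B cells 5 were called higher in GAT without SAT replicate 4 and 1 without SAT replicate 2. For the interferon response 1 was called higher in SAT without GAT replicate 3 and 2 without both replicates 3.

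Complement and acute phase genes were mostly higher in GAT where called. C3, the central complement protein, was at 1149, 1699, 713 and 1928 CPM in GAT and 320.5, 333, 539, 403 and 546 CPM in SAT (log2 fold change 1.68 ± 0.29 SE, adjusted p = 0.0152). It was lost without GAT replicate 2 (0.052). Cfd, the fat-derived protease adipsin of the complement system, was higher in SAT, at 1005 to 1628 CPM in GAT and 2486 to 5315 CPM in SAT (log2 fold change -1.15 ± 0.26 SE, adjusted p = 0.0378). The call was lost without any 1 library other than SAT replicates 2 and 5 (0.050 to 0.089). Of 21 tested complement and acute phase genes 4 were called in GAT and 1 in SAT. With 1 library left out these were 1 to 6 and 0 to 1, with 1 in GAT without GAT replicate 2 and 2 without GAT replicate 4. The arrest genes Cdkn1a (0.42 ± 0.16, adjusted p = 0.171) and Cdkn2a (1.76 ± 0.46, adjusted p = 0.063) were not called, although Cdkn2a passed without SAT replicate 3.

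Markers of Schwann cells, the glia that wrap nerve fibres, were called mostly higher in SAT. Of 14 tested markers 6 were called higher in SAT and 1 in GAT (1.87% and 2.47% over all genes tested), with a median of -1.17. S100b, a calcium-binding protein of glia and fat, was at 3.47, 4.2, 2.71 and 3.96 CPM in GAT and 14.3, 10.9, 9.62, 16.4 and 13 CPM in SAT (log2 fold change -1.84 ± 0.20 SE, adjusted p = 0.00191). Cdh19, an adhesion protein of Schwann cells, was at 0.638, 0.41, 0.586 and 0.712 CPM in GAT and 6.5, 3.04, 9.44, 4.89 and 13 CPM in SAT (log2 fold change -3.64 ± 0.44 SE, adjusted p = 0.00335). Cldn19, a tight junction protein of myelinating Schwann cells, was at 0.192, 0.0513, 0.0244 and 0.057 CPM in GAT and 5.9, 0.966, 8.47, 1.23 and 6.22 CPM in SAT (log2 fold change -5.71 ± 0.92 SE, adjusted p = 0.0112). In Cldn19 SAT replicates 2 and 4 were far below the other 3, though above all of GAT. The myelin scaffold Prx was at 2.98 to 3.72 and 8.74 to 47.3 CPM (log2 fold change -2.89 ± 0.51 SE, adjusted p = 0.0176). This call did not hold without GAT replicate 2 (0.061) or 4 (0.056). The count in SAT was 3 to 7 when 1 library was left out, with 3 without GAT replicate 2 or 4 and 4 without GAT replicate 1 or SAT replicate 1.

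Further called genes belonged to smaller groups. Pdpn, podoplanin of lymphatic and mesothelial cells, was at 15.4 to 43.5 CPM in GAT and 8.85 to 10.6 CPM in SAT (log2 fold change 1.78 ± 0.26 SE, adjusted p = 0.0083), lowest in GAT replicate 1. Sdf2l1, an endoplasmic reticulum protein of the unfolded protein response, was at 18.1 to 35.1 and 8.16 to 11.1 CPM (log2 fold change 1.32 ± 0.20 SE, adjusted p = 0.00851), highest in GAT replicate 3. The keratin Krt79 was at 13.2 to 23.4 and 6.27 to 9.2 CPM (log2 fold change 1.21 ± 0.18 SE, adjusted p = 0.00851). Of 18 circadian clock genes 3 were called, all higher in SAT. Tef (log2 fold change -0.63 ± 0.11 SE, adjusted p = 0.0147) was lost without GAT replicate 2 (0.050). Dbp (log2 fold change -0.90 ± 0.18 SE, adjusted p = 0.0253) was lost without GAT replicate 2 or 4 or SAT replicate 1 or 5 (0.054 to 0.083). Per3 (log2 fold change -0.56 ± 0.12 SE, adjusted p = 0.0353) was lost without GAT replicate 2 or 4 or SAT replicate 1, 2, 4 or 5 (0.061 to 0.10). The labels give no hour of tissue sampling.

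The same contrast was made in Azin2-/- littermates, which share no library with the wild-type groups. In SAT replicate 2 of that genotype the skeletal muscle markers summed to 76470 CPM, against 125 and 135 CPM in the other 2 SAT libraries. With it 2549 of 16800 tested genes were called, which is 15.2%, and without it 2532 of 17220. This count fell to 36 without GAT replicate 2, 40 without SAT replicate 3, 218 without GAT replicate 4 and 278 without GAT replicate 3 of that genotype. Of the 738 genes called in wild-type, 713 were tested. Of these 688 (96.5%) had the same sign, against 72.9% of the 16511 genes tested in both. In the same direction 413 were called, and 0 in the opposite one. Without the library with muscle transcripts 703 of 724 (97.1%) had the same sign, and 388 were called in the same direction and 0 in the opposite one. The log2 fold changes in Azin2-/- were -9.43 for Tbx15, -5.53 for Shox2, -7.41 for Hoxc10 and -4.36 for Hoxa9 (adjusted p of 0.0013 to 0.019). They were 6.77 for Wt1, 7.84 for Tcf21 and 10.09 for Upk3b (adjusted p of 0.0013 to 0.0062). The difference between the genotypes was called for none of these 7. Without that library they were -7.73 for Tbx15, -5.42 for Shox2, -7.07 for Hoxc10, -4.32 for Hoxa9, 6.56 for Wt1, 10.72 for Tcf21 and 10.24 for Upk3b, and each was still called.

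Some genes called in wild-type were near 0 in Azin2-/-. Col1a1 was at 0.09 (adjusted p = 0.895) in Azin2-/- and -0.97 in wild-type. Col3a1 was at 0.10 (adjusted p = 0.876) and -0.84, and Mmp2 was at -0.13 (adjusted p = 0.777) and -1.16. The difference between the genotypes itself passed for none of these, with adjusted p of 0.39, 0.42 and 0.35. Without the Azin2-/- library with muscle transcripts these 3 were at -0.23, -0.25 and -0.38 in Azin2-/-, so the signs of Col1a1 and Col3a1 turned. All 16 macrophage markers were called higher in GAT of Azin2-/- mice, with a median of 1.83, against 2 in wild-type with a median of 0.51. Without that library 11 of the 16 were called, with a median of 1.75. For Adgre1 the fold change was 2.48 in Azin2-/- and 0.88 in wild-type, and the difference did not pass (adjusted p = 0.32). Over all genes, edgeR's quasi-likelihood test of the difference between the genotypes called 0 of 18033, with 2016 at an unadjusted p under 0.05 and a smallest adjusted p of 0.312. It called 107 without GAT replicate 1 of Azin2-/-, and 0 without the Azin2-/- library with muscle transcripts.

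**Figure D5:**
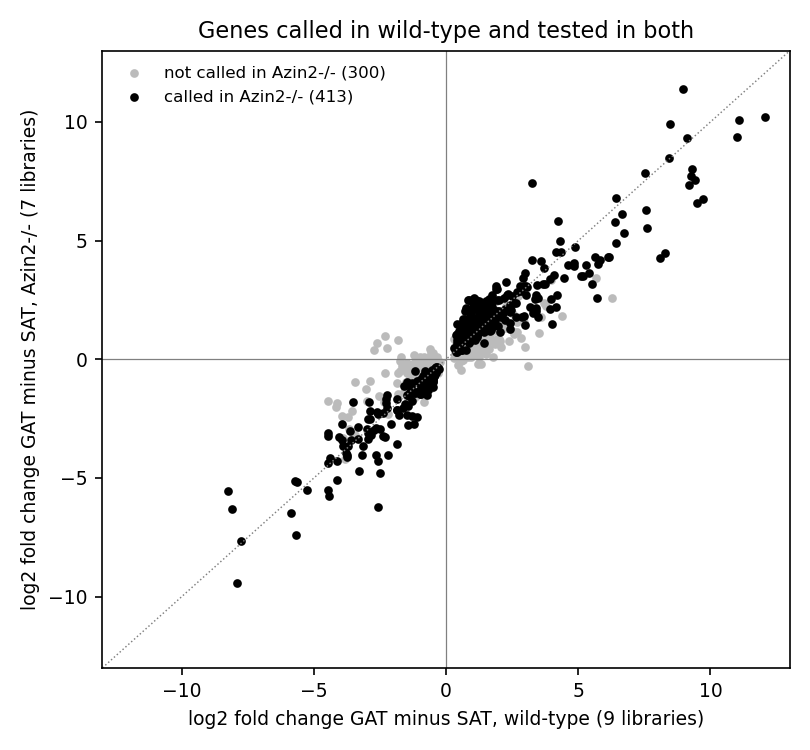
Log2 fold change (GAT minus SAT) in Azin2-/- (7 libraries) against wild-type (9 libraries) for the 713 genes called in wild-type and tested in both. Black points (413) were also called in Azin2-/-, grey points (300) were not, and the dotted line marks equal values. All black points lie in the quadrants of equal sign.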

How the data were processed

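The 9 wild-type libraries are stranded total RNA of whole tissue, read from both ends per the labels' protocols. The authors deposited raw counts, 1 table per library and 1 row per Ensembl gene. The submitters' processing notes name STAR, cutadapt and HTSeq 0.6.1p1 and the build GRCm38 (mm10). Counting mode, strand setting and annotation release: not given in the sources used here. Overlapping and antisense genes may therefore share reads. GENCODE M21 gave symbols and coordinates for 49326 of 49585 identifiers, and the other 259 held 0.0104% of wild-type counts.

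The main test was the robust quasi-likelihood test of edgeR 4.0.16 (R 4.3.3) after filterByExpr (minimum count 10, minimum total 15) and TMM, adjusted over all genes. The SE is the coefficient divided by the root of its F value. Depth was 33.3 to 46.6 megareads, and the floor is 3 counts (95% confidence, counting error only). A fitted fold change with few counts in a depot depends on a prior count. Normalised CPM use the TMM factors. Alternatives were DESeq2 1.42.0 (size factors, Wald test), limma 3.58.1 (voom with sample weights), glmTreat against a log2 fold change of 1, no filter, all 24 libraries, a replicate block and libraries left out. The edgeR step was tested on simulated data.

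Members, gene lists and tests were chosen with earlier results of these data known. The rule named 9 set genes and the tested Hox and patterning factors. It added up to 10 genes per direction of largest change, called, without overlap, at a mean log2 CPM of 1 or more, and neither muscle or epididymis markers nor gene models. From each other list it took up to 4 called genes of smallest p. Some are given by counts only or are not reported here.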

Additional observations from a re-analysis of the deposited data

Results flagged for a closer look

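Values are given here where the highest or lowest library of a depot lay apart by Dixon's ratio of the gap to the range. In 212 groups of 4 or 5 values there were 26 such values. Of these 10 were in GAT replicate 3 and 7 in SAT replicate 3, the libraries with transcripts of other organs. Chance sets apart about 1 in 20 groups of normally distributed values. CPM need not be so distributed, so that rate is no baseline here. Where all libraries but 1 are at 0, as for Lhx8 in GAT, the ratio is 1 whatever the count.

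In SAT replicate 3 the skeletal muscle sum was 68600 CPM, and beside it Odc1 was at 193 CPM (61.9 to 94.3 in the other SAT libraries), Tbx15 at 137 (16.5 to 21.3), Irx5 at 12.6 (1.98 to 2.73), Hoxc10 at 47.8 (22.9 to 29.0), Ppargc1a at 12.5 (7.77 to 8.57) and Bnc1 at 0.147 CPM (0 in the others). In GAT replicate 3 the epididymis and testis sum was 6550 CPM, and beside it Hoxb8 was at 124 CPM (7.73 to 11.7 in the other GAT libraries), Emx2 at 91.9 (0.809 to 1.42), Faim2 at 77.8 (0.383 to 3.36), Hoxa10 at 1.47 (0 to 0.192), Krt8 at 154 (1.45 to 24.7), Krt18 at 162 (1.32 to 11.0), Cxcl14 at 12.8 (6.21 to 7.18), Lhx8 at 0.122 (0 in the others) and Hoxc4 at 12.6 CPM, the lowest (23.8 to 25.4). The part of the muscle and epididymal transcripts in these values was not tested.

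The rest were spread over 5 libraries. GAT replicate 1 was lowest in Cfd at 1000 CPM (others 1560 to 1630) and highest in Dbp at 63.5 CPM. GAT replicate 2 was lowest in Lox at 90.4 CPM. SAT replicate 1 was highest in Hoxc4 at 13.5 CPM and in Chst4 at 0.0482 CPM, and SAT replicate 2 in Lrp2 at 0.126 CPM and in Krt8 at 1.83 CPM (others 0 to 0.409). SAT replicate 5 was highest in Cfd at 5320 CPM (others 2490 to 3010) and in Grb14 at 95.1 CPM.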

How the results depend on the processing

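Against 738 genes called between wild-type depots, DESeq2's Wald test called 1784 and limma-voom 2454, and 732 and 727 of the 738 were among these. No low-count filter gave 490, with 471 of the 738 among them, and glmTreat against a log2 fold change of 1 gave 106. All 24 libraries in 1 fit gave 628, with 417 of the 738 among them. In that fit 20 of the 90 called genes named missed the threshold. Leaving out both replicates 3 gave 1136, and leaving out each library in turn 296 to 909. With a replicate block for the title mark over all 9 libraries 0 genes were called by edgeR (2232 at an unadjusted p under 0.05, smallest adjusted p 0.0562), and over the 3 marked pairs alone 0 (2197 and 0.0953). All 738 kept their sign under the block of 9. The main fit has no block, since the labels do not state that a mark is 1 animal. Libraries that share a mark deviated with correlations of 0.235, -0.028 and -0.046, and those that do not with -0.28 to 0.183. The pairs at -0.028 and -0.046 each hold a replicate 3 with transcripts of other organs. These values therefore cannot decide whether the marks pair the libraries. In Azin2-/- the replicate block gave 1099 of 2549 calls, and libraries left out in turn gave 36 to 3414. The difference between genotypes gave 0 to 107 calls, and 0 with the replicate block.

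Library size differed by -1.02 to 3.002 megareads when each library was left out (exact permutation p of 0.34 or more). The 90 called genes named kept their sign in each alternative that gave them an adjusted p, which DESeq2's Wald test did for 87. Signs turned only in genes not called. Odc1 was 0.002 with DESeq2 or its size factors, 0.17 with limma-voom, 0.000 without a filter, 0.27 without both replicates 3 and -0.13 to 0.38 with each library left out. Hoxb8 was -0.23 and Emx2 -1.14 without both replicates 3, Emx2 was -0.44 with limma-voom, and with each library left out Hoxb8 ranged from -0.15 to 2.10 and Emx2 from -1.57 to 3.37. With the replicate block Lep was 0.061 (9 libraries) and 0.072 (3 pairs), and Adipoq -0.04 and -0.03. The cause was not tested. Depth sets the bounds of Muc16 and Gata5, which had 0 counts in SAT.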
